A study of Mus musculus with 12 samples.

Results

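Transcripts of 10 genes were followed through macrophages sorted from mouse synovium: the inflammatory cytokines *Il1a*, *Il1b*, *Il6*, *Il12b*, *Il15*, *Il18*, *Il23a* and *Tnf*, the interleukin-1 (IL-1) receptor antagonist *Il1rn* and the anti-inflammatory cytokine *Il10*. They were taken by symbol from the 26699 genes of the count files, and 9 of the 10 passed the filter on low counts, *Il23a* being the exception. Whole synovium of adult wild-type C57BL/6 mice was held ex vivo for 4 h with 100 nM CGRP or, per the study's methods, with vehicle. It was then digested with collagenase and sorted. CGRP is calcitonin gene-related peptide, a neuropeptide of nociceptors. The groups were IAIE control, CD11c control, IAIE CGRP and CD11c CGRP, each with 3 libraries and 12 in all, where IAIE stands for MHCII+CD11c- macrophages, CD11c for MHCII+CD11c+ cells, and the control titles read healthy. Since the whole explant was exposed, every other synovial cell type met CGRP too. The labels do not say whether the replicates came from separate animals, so p-values measure the spread between these libraries, which may be technical.

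IL-1α and IL-1β signal through a shared receptor that IL-1 receptor antagonist occupies without signalling. TNF and IL-6 act beside them in joint inflammation, and IL-10 restrains the production of all of these by macrophages. IL-12 and IL-23 share the p40 chain encoded by *Il12b*, with p19 from *Il23a* completing IL-23, while IL-15 sustains NK and memory T cells and IL-18, like IL-1β, is cut to its active form by caspase-1. The CGRP receptor raises cAMP, which in myeloid cells is known for acting on cytokine genes. The comparisons asked which of these transcripts respond to CGRP in each subset, and how the subsets differ.

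Library totals ran from 2127191 to 5649698 counts. The IAIE CGRP libraries (4009081 to 5364559) were all deeper than the IAIE control libraries (2127191 to 3310825). Values are given as CPM, counts divided by TMM-scaled library size, as mean ± SD with n = 3, and a level of 3 counts, taken as the floor of detection, lay between 0.534 and 1.34 CPM, for counting error only. The macrophage label was checked with *Csf1r*, the receptor for macrophage colony-stimulating factor, at a mean of 1439 CPM in IAIE control and 595 CPM in CD11c control libraries, and with *Adgre1*, which encodes F4/80, at 463 and 273 CPM. Dendritic cell genes were also present: *Zbtb46* was at 12.1 CPM in IAIE control and 78.1 CPM in CD11c control libraries, and *Flt3* at 9.22 and 18.6 CPM.

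The RefSeq promoter table (GRCm38.p6, the assembly the counts were aligned to as mm10) held 7 of the 10 genes. It held no match for *Il10*, *Il15* or *Il23a*. The 250 bases before the start site are shown for the 3 IL-1 genes, *Il6* and *Tnf*, because these carry most of the reads described below and because *Il6* and *Il1b* were higher and *Tnf* lower in CD11c than in IAIE cells. Capitals mark matches, on either strand, to the motifs searched: NF-kB, the cAMP response element CRE (TGACGTCA), the core of CRE (TGACG, which every CRE also holds), AP-1 (TGANTCA), C/EBP (TTGCNNAA), IRF (GAAANNGAA) and the TATA box (TATAAA). Each is written 5′ to 3′ on the strand of its gene, *Il1a* at chr2:129309973-129310222 (minus), *Il1b* at chr2:129371140-129371389 (minus), the first of 3 *Il1rn* windows at chr2:24336610-24336859 (plus), *Il6* at chr5:30012864-30013113 (plus) and *Tnf* at chr17:35202008-35202257 (minus).
Il1a: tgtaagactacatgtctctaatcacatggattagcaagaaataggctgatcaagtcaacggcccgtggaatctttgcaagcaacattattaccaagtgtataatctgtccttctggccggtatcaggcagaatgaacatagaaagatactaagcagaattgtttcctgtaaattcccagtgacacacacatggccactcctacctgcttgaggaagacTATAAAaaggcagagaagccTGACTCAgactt
Il1b: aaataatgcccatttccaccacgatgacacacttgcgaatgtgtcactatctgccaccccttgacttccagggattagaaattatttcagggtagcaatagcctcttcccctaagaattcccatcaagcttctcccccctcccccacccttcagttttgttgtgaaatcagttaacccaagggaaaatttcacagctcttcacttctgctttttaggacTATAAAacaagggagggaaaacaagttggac
Il1rn: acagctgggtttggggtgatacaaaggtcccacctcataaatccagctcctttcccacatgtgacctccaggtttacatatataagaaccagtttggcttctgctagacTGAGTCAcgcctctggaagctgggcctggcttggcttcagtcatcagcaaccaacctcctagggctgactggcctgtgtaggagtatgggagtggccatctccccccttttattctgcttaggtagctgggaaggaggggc
Il6: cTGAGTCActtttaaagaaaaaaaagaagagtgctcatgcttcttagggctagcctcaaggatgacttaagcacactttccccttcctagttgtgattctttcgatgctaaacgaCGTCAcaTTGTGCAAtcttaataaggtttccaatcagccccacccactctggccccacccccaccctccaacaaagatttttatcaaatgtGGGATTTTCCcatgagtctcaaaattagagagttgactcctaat
Tnf: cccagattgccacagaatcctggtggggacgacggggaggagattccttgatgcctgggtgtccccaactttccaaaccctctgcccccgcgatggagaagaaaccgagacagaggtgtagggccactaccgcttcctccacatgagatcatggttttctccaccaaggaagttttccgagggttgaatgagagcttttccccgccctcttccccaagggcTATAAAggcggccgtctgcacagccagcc

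Counted back from the start site, *Il6* had an NF-kB match at -44 to -35, a C/EBP match at -128 to -121, a CRE core at -135 to -131 and an AP-1 match at -249 to -243. *Il1a* had AP-1 at -12 to -6 and TATA at -32 to -27, and *Il1rn* had AP-1 at -141 to -135. TATA matches lay at -31 to -26 in *Il1b* and at -29 to -24 in *Tnf*. Outside the sequences shown, *Il18* had a TATA match on the opposite strand at -175 to -170, and *Il12b* had none of the motifs. No window held a full CRE or an IRF match. Among all 32851 windows of this length in the table, 3.90% held NF-kB, 1.55% CRE, 17.8% the CRE core, 6.75% AP-1, 9.56% C/EBP, 7.13% IRF and 12.4% TATA.

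In the IAIE subset CGRP was followed by higher *Il15*, *Il1rn* and *Il1a* and by lower *Il10*, while *Il1b*, *Il6*, *Il18*, *Il12b* and *Tnf* did not pass the test. That is 4 of the 9 tested genes at an adjusted p under 0.05 in edgeR, against 9.21% of all 11927 genes tested. Of these, 3 rose (5.32% of all genes) and 1 fell (3.89%). In the CD11c subset 4 of 9 passed (10.9% of all genes), all higher with CGRP (6.29%, with 4.59% of all genes lower): *Il15*, *Il1a*, *Il1rn* and *Tnf*. The median log2 fold change of the 9 genes was 0.18 in IAIE and 0.05 in CD11c cells, beside -0.023 and 0.0016 over all genes. In bulk samples fewer cells that carry a transcript and less of it per cell cannot be told apart.

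**Figure D1:**
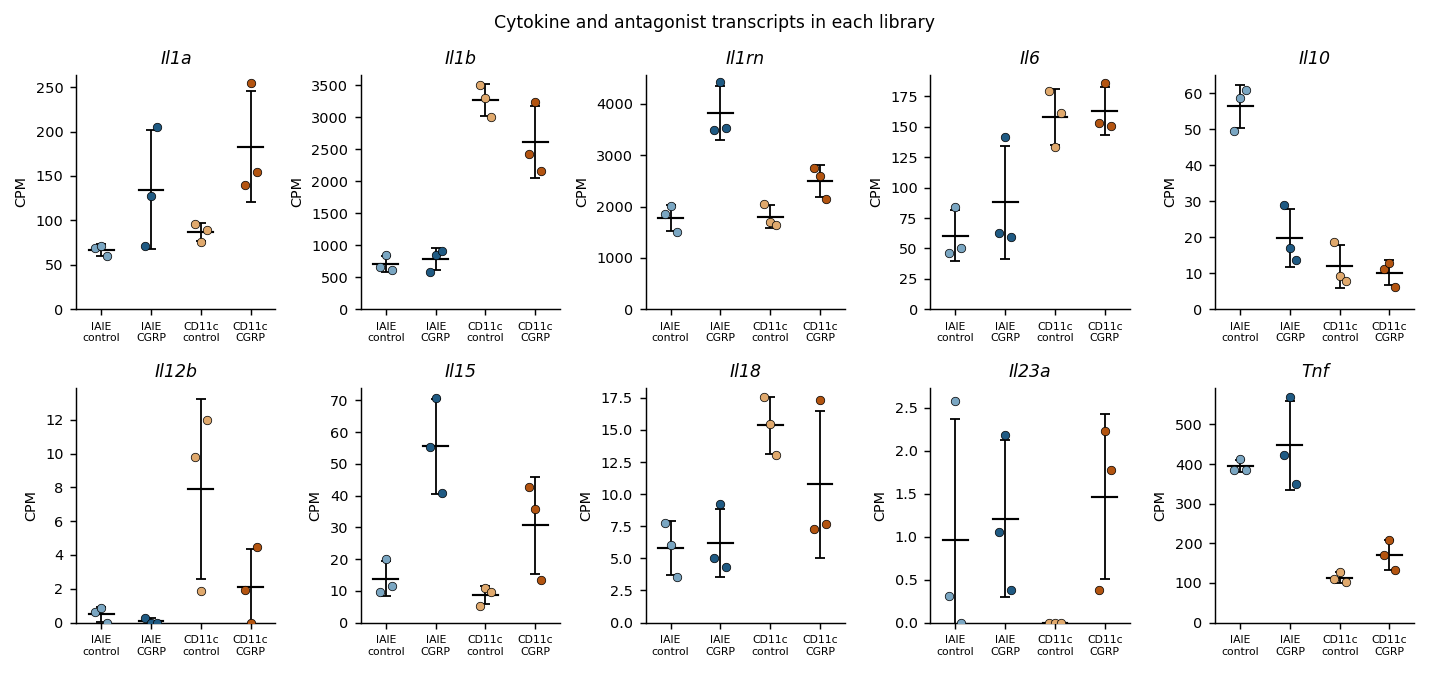
Level of each of the 10 transcripts in CPM (vertical axis from 0, own scale per panel) in the 4 groups, with 1 point per library, the horizontal bar at the mean and whiskers at ± SD (n = 3, lower whiskers end at 0). *Il1rn* with CGRP lies at 3493 to 4426 CPM in IAIE cells, above all IAIE control libraries (1505 to 2003), and *Il10* falls from 49.6 to 60.9 CPM in IAIE control libraries to 13.6 to 28.8 CPM with CGRP.

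*Il1rn* (chromosome 2, 24336853 to 24351494, plus strand), the antagonist, was at 1849, 2003 and 1505 CPM in the IAIE control libraries and at 3493, 4426 and 3535 CPM with CGRP. All 3 CGRP libraries lay far above the controls. The level rose 2.14-fold from 1786 ± 255 to 3818 ± 527 CPM (log2 fold change 1.10 ± 0.14, edgeR adjusted p 3.92e-05) and passed in all 12 fits that left out a library. In CD11c cells it was at 2056, 1701 and 1641 CPM without and 2756, 2598 and 2157 CPM with CGRP. The groups did not overlap, although the lowest CGRP library was close to the highest control. Here the rise was 1.39-fold (0.48 ± 0.14, edgeR adjusted p 0.0308), and it did not pass without CD11c control replicate 2 (adjusted p 0.142), CD11c control replicate 3 (0.158), CD11c CGRP replicate 1 (0.146) or CD11c CGRP replicate 2 (0.0853).

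*Il1a* (chromosome 2, 129299610 to 129309972, minus strand), whose product IL-1α acts as an alarmin when cells are damaged, was at 69.5, 71.4 and 59.5 CPM in IAIE control and at 71.5, 127 and 205 CPM in IAIE CGRP libraries. The CGRP libraries spread widely and the lowest was level with the highest control. The log2 fold change was 1.01 ± 0.28 (2.01-fold, edgeR adjusted p 0.0265). The call was lost in limma-voom (adjusted p 0.141) and without any library of this comparison other than IAIE CGRP replicate 1, with adjusted p from 0.0549 to 0.215, the last without IAIE CGRP replicate 3, when the change was 0.58. In CD11c cells *Il1a* went from 96.3, 76.2 and 89.0 CPM to 140, 254 and 155 CPM. These groups were apart, with CGRP replicate 2 standing highest. The rise was 2.10-fold (1.07 ± 0.27, edgeR adjusted p 0.0145), and it did not pass without CD11c control replicate 2 (adjusted p 0.0781), CD11c control replicate 3 (0.0520) or CD11c CGRP replicate 2 (0.104). *Gm14023* on the opposite strand overlaps 11.2% of the exon bases of *Il1a*, and how the counting treated strand is not stated.

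*Il1b* (chromosome 2, 129364570 to 129371139, minus strand), the inflammasome-dependent agonist, did not pass with CGRP in either subset. In IAIE cells it was at 658, 847 and 615 CPM without and 583, 855 and 915 CPM with the peptide (log2 fold change 0.15 ± 0.17, edgeR adjusted p 0.678). In CD11c cells the values were 3505, 3300.1 and 2999 CPM against 2434, 3237 and 2156 CPM (-0.32 ± 0.17, edgeR adjusted p 0.283). Both pairs of groups overlapped. *Il1bos*, on the opposite strand, overlaps 1.31% of its exon bases.

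Since *Il1rn* and its agonists compete for a receptor, their counts were set against each other within each library, which needs no scaling between libraries. The ratio of *Il1rn* to *Il1a* plus *Il1b* counts was 2.54, 2.18 and 2.23 in IAIE control and 5.34, 4.51 and 3.16 in IAIE CGRP libraries. In CD11c cells it was 0.571, 0.504 and 0.531 without and 1.07, 0.744 and 0.933 with CGRP. In both subsets every CGRP library was above every control, and in CD11c cells antagonist counts exceeded agonist counts only in CGRP replicate 1. Over both subsets the ratio was 1.76-fold higher with CGRP (log2 difference 0.82, exact permutation test within subsets, two-sided, p = 0.005, adjusted 0.005 over the 2 ratios examined), which is the smallest p that its 400 arrangements allow. That test moves the subsets apart, although same-numbered IAIE and CD11c libraries with CGRP deviated together. With same-numbered libraries of both subsets moved together, a test added after the values were seen, p was 0.1 in the exact permutation test, the smallest of 20 arrangements. Within 1 subset the rise was 1.83-fold in IAIE and 1.69-fold in CD11c cells (exact permutation p = 0.1 each, the smallest that 3 against 3 can give). Whether these rises differ was not tested.

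**Figure D2:**
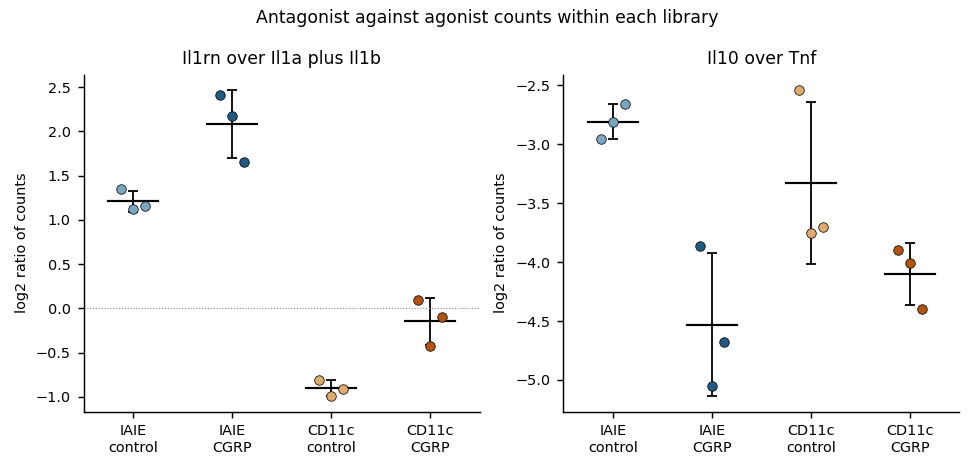
Log2 ratio of counts within each library (vertical axis), *Il1rn* over *Il1a* plus *Il1b* on the left and *Il10* over *Tnf* on the right, with 1 point per library, the mean as a bar and ± SD as whiskers (n = 3 per group). The dotted line marks equal counts. Mean log2 ratios move from 1.21 to 2.08 (IAIE) and from -0.90 to -0.14 (CD11c) on the left, and from -2.81 to -4.53 and from -3.33 to -4.10 on the right.

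*Il10* (chromosome 1, 131019845 to 131024974, plus strand) was the one gene of the 9 tested that was called lower with CGRP, in IAIE cells. There it went from 49.6, 58.8 and 60.9 CPM to 28.8, 17.0 and 13.6 CPM with CGRP. The groups were well apart. The mean dropped 2.85-fold, from 56.4 ± 5.98 to 19.8 ± 8.01 CPM (log2 fold change -1.52 ± 0.33, edgeR adjusted p 0.00524), and the fall passed in all 12 fits without a library and all 10 other fits. B cells, which can make IL-10, had marker transcripts in these sorts: the sum of 7 B cell genes was 168 to 300 CPM in IAIE control and 82.3 to 133 CPM in IAIE CGRP libraries, none of the 7 was at 0 in every library, and 1 of them, *Ighm*, was called lower (-0.82 ± 0.23, edgeR adjusted p 0.0302). Their part in the fall of *Il10* was not tested. CD11c cells held less *Il10*, 18.8, 9.35 and 7.72 CPM without and 11.3, 12.9 and 6.23 CPM with CGRP, groups that overlapped (-0.20 ± 0.36, edgeR adjusted p 0.824).

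*Tnf* (chromosome 17, 35199381 to 35202007, minus strand), which encodes the cytokine TNF, was at 386, 414 and 386 CPM in IAIE control and 423, 569 and 349 CPM in IAIE CGRP libraries. These overlapped (log2 fold change 0.18 ± 0.17, edgeR adjusted p 0.614). CD11c cells went from 110, 128 and 102 CPM to 170, 209 and 133 CPM, with the lowest CGRP library just above the highest control. The rise of 1.51-fold (0.59 ± 0.18, edgeR adjusted p 0.0361) was lost in limma-voom (adjusted p 0.0534), with 1 surrogate variable (0.0652) or in 5 of the 12 fits without a library (adjusted p from 0.0511 to 0.207), namely without any CD11c library other than CD11c CGRP replicate 3. The count ratio of *Il10* to *Tnf* was 0.129, 0.142 and 0.158 in IAIE control and 0.0685, 0.0301 and 0.0391 in IAIE CGRP libraries. In CD11c cells it was 0.172, 0.0741 and 0.0769 without and 0.0670, 0.0621 and 0.0474 with CGRP. No CGRP library reached the lowest control of its subset. The ratio was 2.37-fold lower over both subsets (log2 difference -1.25, exact permutation test within subsets, two-sided, p = 0.005, adjusted 0.005, and 0.1 with same-numbered libraries moved together), 3.30-fold lower in IAIE and 1.71-fold lower in CD11c cells (exact permutation p = 0.1 each).

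*Il15* (chromosome 8, 82331632 to 82403222, minus strand), which supports NK and memory T cells, had the largest change of the tested genes called with CGRP in each subset. It is among the rising genes the study singled out on these same libraries, as *Il1b* and *Il6* are among those it displayed, so none of them is independent evidence. Its level was 9.62, 20.1 and 11.6 CPM in IAIE control and 55.3, 70.7 and 40.7 CPM in IAIE CGRP libraries, well above the controls. The rise was 4.04-fold (log2 fold change 1.99 ± 0.38, edgeR adjusted p 0.00181). In CD11c cells it went from 5.30, 10.8 and 9.65 CPM to 42.6, 35.9 and 13.3 CPM. CGRP replicate 3 lay near the controls and the other two far above them. The rise there was 3.57-fold (1.79 ± 0.39, edgeR adjusted p 0.00430), and limma-voom gave an adjusted p of 0.0506. *Il15ra*, the receptor chain that presents IL-15 on the cell surface, also rose. It was at 1.24, 1.15 and 4.48 CPM in IAIE control and 10.3, 15.8 and 4.15 CPM in IAIE CGRP libraries (2.22 ± 0.63, edgeR adjusted p 0.0303). The CD11c control libraries held 2.45, 2.10 and 3.43 CPM and the CD11c CGRP libraries 8.63, 22.03 and 8.36 CPM (2.25 ± 0.59, edgeR adjusted p 0.0165). Only the IAIE groups overlapped.

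*Il6* (chromosome 5, 30013114 to 30019981, plus strand), the cytokine that drives the acute-phase response, was at 46.2, 84.3 and 50.6 CPM in IAIE control and 62.7, 142 and 59.2 CPM in IAIE CGRP libraries. Replicate 2 was highest in both groups, which overlapped (log2 fold change 0.53 ± 0.28, edgeR adjusted p 0.279). The change passed when the filter kept every gene with a count (adjusted p 0.0123). In CD11c cells *Il6* was at 179, 133 and 162 CPM without and 153, 186 and 151 CPM with CGRP (0.05 ± 0.26, edgeR adjusted p 0.948). Fibroblasts are another source of IL-6, and the sum of 10 fibroblast genes was 361 to 1562 CPM in IAIE control, 570 to 2204 CPM in IAIE CGRP, 207 to 277 CPM in CD11c control and 461 to 769 CPM in CD11c CGRP libraries. With CGRP 1 of the 7 tested fibroblast genes was higher in IAIE cells, *Pdpn*, which made up 517 to 633 CPM of the IAIE CGRP sums. Another 3 were lower there, *Col1a1*, *Col1a2* and *Col3a1*. *Prg4* was at 1433 CPM in IAIE CGRP replicate 1, behind the highest sum, and at 2.92 and 2.07 CPM in replicates 2 and 3. In CD11c cells 3 fibroblast genes were higher, and none of the 10 was at 0 in every library. Their part in the *Il6* values was not tested.

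*Il18* (chromosome 9, 50554827 to 50581840, plus strand), the other cytokine released by caspase-1, was low, with 8 to 70 counts a library. It was at 7.76, 6.02 and 3.58 CPM in IAIE control, 5.03, 9.23 and 4.34 CPM in IAIE CGRP, 17.5, 15.4 and 13.1 CPM in CD11c control and 7.29, 17.3 and 7.65 CPM in CD11c CGRP libraries. Treated and control values overlapped in both subsets (log2 fold changes 0.07 ± 0.45 and -0.52 ± 0.41, edgeR adjusted p 0.957 and 0.525). *Il12b* (chromosome 11, 44400063 to 44414033, plus strand), the p40 chain, had 2, 3 and 0 counts in IAIE control and 1, 0 and 0 in IAIE CGRP libraries, at or under the floor. In CD11c cells it had 24, 8 and 56 counts without and 10, 0 and 25 with CGRP, or 7.89 ± 5.33 and 2.12 ± 2.23 CPM, and did not pass (-1.84 ± 0.94, edgeR adjusted p 0.271). *Il23a* (chromosome 10, 128296139 to 128298752, minus strand), the p19 chain, was not tested: it had 1, 9 and 0 counts in IAIE control, 4, 9 and 2 in IAIE CGRP, 0 in each CD11c control and 2, 9 and 10 in CD11c CGRP libraries. The floor of 3 counts in a library averaged 0.856 CPM over the CD11c control libraries. This takes each library singly, and is looser than a limit on their pooled counts. The mean with CGRP, 1.46 ± 0.962 CPM, was 1.71-fold this averaged floor, with no test. The error of that mean is not counted, and CD11c CGRP replicate 1, at 0.384 CPM, lay under the averaged floor.

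Whether the response to CGRP differed between subsets was tested as an interaction. None of the 9 genes passed in edgeR (0.151% of all genes did), with 2 at an unadjusted p under 0.05 and none called in DESeq2 or limma-voom. They were *Il1rn*, whose change was smaller in CD11c cells (difference of log2 fold changes -0.62 ± 0.20, edgeR p 0.00515, adjusted p 0.294), and *Il10* (1.32 ± 0.49, edgeR p 0.0139, adjusted p 0.397). *Il1rn* passed when the filter kept every gene with a count (adjusted p 0.0165). The fall of *Il10* in IAIE cells alone and the rise of *Tnf* in CD11c cells alone were therefore not shown to differ between the subsets.

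**Figure D3:**
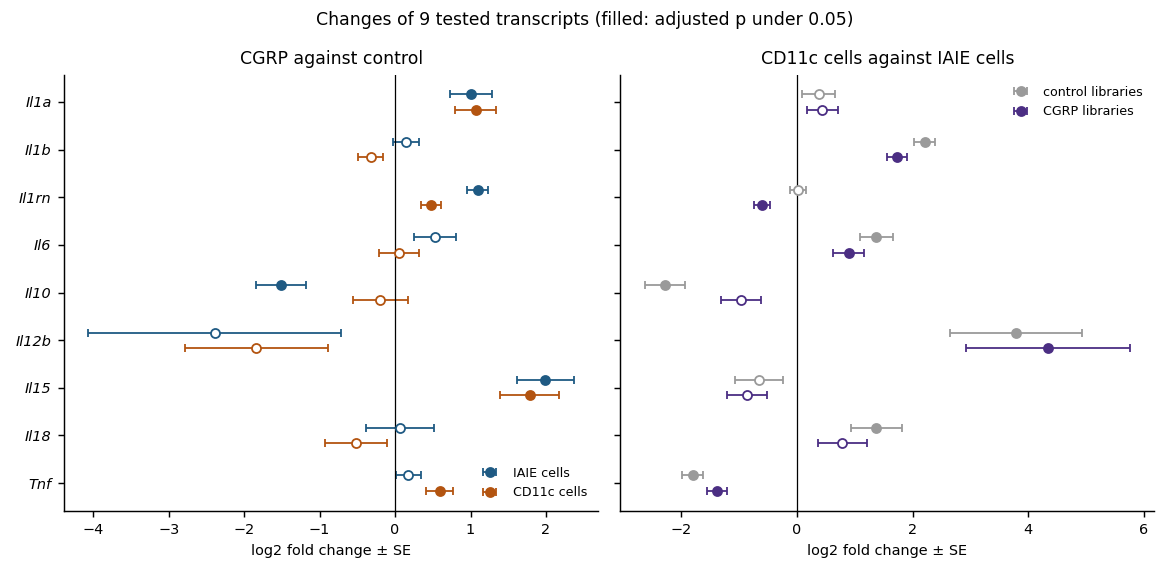
Log2 fold change ± SE from edgeR (horizontal axis) of the 9 tested genes, CGRP against control in each subset on the left and CD11c against IAIE cells in control and in CGRP libraries on the right. Filled points have an adjusted p under 0.05. *Il15*, *Il1a* and *Il1rn* are filled and to the right of 0 in both subsets on the left, and *Il1b* and *Tnf* take opposite sides on the right. The *Il12b* points on the right are filled too, but their fill is not to be read as a test. The filter kept that gene only through CD11c libraries.

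Leaving *Il12b* aside, which the filter kept only through CD11c libraries, where it is higher, the subsets differed without CGRP in 5 of 8 tested genes (21.2% of all genes did): *Il1b*, *Il6* and *Il18* were higher in CD11c cells (10.2% of all genes) and *Tnf* and *Il10* lower (10.9%). With CGRP 4 of 8 passed (16.9% of all genes), *Il1b* and *Il6* higher in CD11c cells (8.36%) and *Tnf* and *Il1rn* lower (8.51%). The IAIE and CD11c libraries behind both contrasts are those whose values stand above. 

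*Il1b* was 4.62-fold higher in CD11c than in IAIE control libraries, 3268 ± 255 against 707 ± 124 CPM (log2 difference 2.21 ± 0.18, edgeR adjusted p 5.27e-08). With CGRP it was 3.33-fold higher, 2609 ± 561 against 784 ± 177 CPM (1.73 ± 0.18, edgeR adjusted p 8.24e-07). No CD11c library came near an IAIE library in either treatment. *Il6* differed 2.62-fold in control libraries (158 ± 23.1 against 60.4 ± 20.8 CPM, 1.38 ± 0.28, edgeR adjusted p 0.00131) and 1.86-fold with CGRP (163 ± 19.5 against 87.9 ± 46.6 CPM, 0.89 ± 0.27, edgeR adjusted p 0.0250). The second of these did not pass without IAIE CGRP replicate 1 (adjusted p 0.132), IAIE CGRP replicate 3 (0.127) or CD11c CGRP replicate 2 (0.0830). *Tnf* ran the other way, 3.49-fold lower in CD11c control (113 ± 13.2 against 395 ± 16.3 CPM, -1.80 ± 0.18, edgeR adjusted p 8.42e-07) and 2.62-fold lower in CD11c CGRP libraries (171 ± 38.0 against 447 ± 112 CPM, -1.39 ± 0.18, edgeR adjusted p 1.21e-05). The differences of *Il1b* and *Tnf* passed in all 12 fits without a library and all 11 other fits, in both treatments.

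*Il10* was 4.72-fold lower in CD11c than in IAIE control libraries (11.9 ± 5.96 against 56.4 ± 5.98 CPM, log2 difference -2.29 ± 0.35, edgeR adjusted p 9.32e-05). With CGRP it was at 10.1 ± 3.47 against 19.8 ± 8.01 CPM and missed the threshold (-0.97 ± 0.34, edgeR adjusted p 0.0626). It passed with the replicate number as a block (adjusted p 0.0383) and in 8 of the 11 other fits, this block included, with adjusted p from 0.0133 to 0.0727 over the 11, and without CD11c control replicate 1 (0.0352) or IAIE CGRP replicate 3 (0.0336). *Il1rn* stood level between the subsets without CGRP, 1799 ± 224 and 1786 ± 255 CPM (0.01 ± 0.14, edgeR adjusted p 0.972), and was 1.53-fold lower in CD11c cells with it (-0.61 ± 0.14, edgeR adjusted p 0.00391). *Il18* was 2.65-fold higher in CD11c control libraries (15.4 ± 2.23 against 5.79 ± 2.10 CPM, 1.37 ± 0.44, edgeR adjusted p 0.0299), a call lost in limma-voom (adjusted p 0.0558), with 1 surrogate variable (0.0503) and without IAIE control replicate 2 or 3 or CD11c control replicate 1 or 2 (adjusted p from 0.0542 to 0.104). *Il12b* had 88 counts over the CD11c control and 5 over the IAIE control libraries, a ratio of 13.8 relative to library size (95% exact interval 5.70 to 43.6, counting error only). With CGRP it had 35 against 1, a ratio of 31.1 (5.22 to 1261), and the groups overlapped at 0. Since it passed the filter only through CD11c libraries, these are given as a description with no test. *Il1a* and *Il15* did not pass between subsets (edgeR adjusted p 0.396 and 0.296 in control, 0.322 and 0.106 with CGRP). Between the CGRP subsets *Il1a* passed without IAIE CGRP replicate 3 (0.88, adjusted p 0.0220), and *Il15* passed as lower in CD11c cells without CD11c CGRP replicate 1 (-1.18, adjusted p 0.0492), in limma-voom (0.0120) and with an explant block of treatment by replicate number (0.0106).

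The subsets and treatments also differed in the markers of other cells, whose part in the cytokine differences was not tested. In control libraries 9 of 10 macrophage genes were lower in CD11c cells and 6 of the 9 tested dendritic cell genes were higher. The sum of the 10 macrophage genes was 8907 to 12206 CPM in IAIE control, 7765 to 9591 CPM in IAIE CGRP, 6452 to 8357 CPM in CD11c control and 4411 to 5680 CPM in CD11c CGRP libraries. That of the 10 dendritic cell genes was 118 to 188, 92.6 to 122, 678 to 758 and 703 to 820 CPM in the same order. With CGRP the CD11c libraries held less *Cd209a*, *Dpp4* and *Flt3* (log2 fold changes -1.91, -2.07 and -2.03) and more *Ccr7* (1.26), so that 3 of the 9 dendritic cell genes were lower and 1 higher. Of 10 monocyte genes 2 were higher and 2 lower in CD11c control libraries. Their sum was 6084 to 7093 CPM in CD11c control and 3135 to 3557 CPM in CD11c CGRP libraries, of which *Fn1* made up 5804 ± 515 and 2699 ± 178 CPM (-1.10 ± 0.26, edgeR adjusted p 0.00843), while *Vcan* and *Ms4a4c* were higher with CGRP (1.61 and 1.30, edgeR adjusted p 0.00360 and 0.0444). All 7 B cell genes were tested, and 6 were lower in CD11c control libraries. Neutrophil genes were present at 92.7 to 472 CPM in IAIE control and 30.6 to 584 CPM in CD11c control libraries, with 3 of 10 called lower in the latter. Lining macrophage genes were mostly lower in CD11c control libraries (5 of 8, with 1 higher). Of the 7 tested fibroblast genes 5 were lower in CD11c control libraries and none higher, with a median log2 difference of -4.07 over the 7. Of the other lists 1 of 7 endothelial genes, 1 of 2 T and NK cell genes and none of 4 mast cell genes were called between the control subsets. The T and NK cell gene called was *Il7r*, while *Cd3d*, *Cd8a*, *Trac*, *Klrb1c* and *Gzma* were too low to be tested. Of 11 T and NK cell genes listed only 7 were in the count files. No listed marker found there was at 0 in every library.

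**Figure D4:**
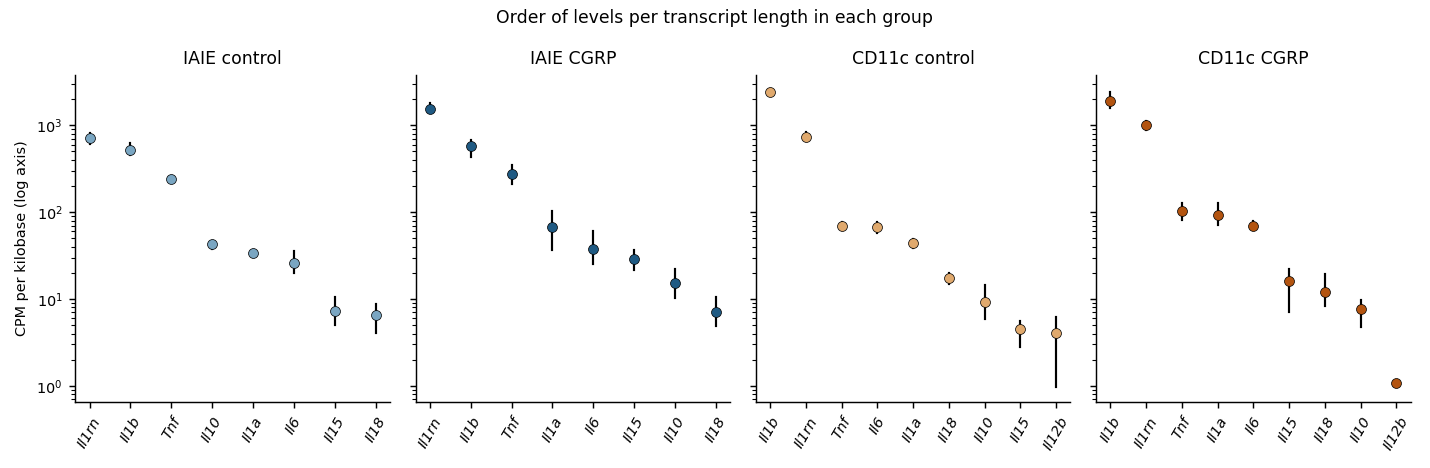
Level per transcript length (CPM per kilobase, log axis) of the tested genes in each group, in falling order, with the mean as a point and the lowest to highest library as a line. Means under 0.5 CPM per kilobase are left out, and so is the line of *Il12b* in CD11c CGRP libraries, where 1 library is at 0. *Il1rn* leads in IAIE cells (722 and 1543) and *Il1b* in CD11c cells (2410 and 1924).

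Levels of different genes were compared per kilobase of the longest coding transcript. In IAIE control libraries *Il1rn* (722 ± 103 CPM per kilobase) and *Il1b* (521 ± 91.2) led without a gap between their libraries, followed by *Tnf* (241 ± 9.95), *Il10* (43.1 ± 4.56), *Il1a* (33.8 ± 3.22) and *Il6* (25.8 ± 8.89), the last pair overlapping. With CGRP *Il1rn* reached 1543 ± 213 and stood clear of *Il1b* at 578 ± 130, while *Il10* at 15.1 ± 6.12 moved behind *Il15* at 29.1 ± 7.86, although these 2 overlapped. In CD11c control libraries *Il1b* (2410 ± 188) stood clear of *Il1rn* (727 ± 90.6), and *Tnf* (69.0 ± 8.08) and *Il6* (67.4 ± 9.87) overlapped. In CD11c CGRP libraries *Il1b* was at 1924 ± 414, *Il1rn* at 1012 ± 126, *Tnf* (104 ± 23.2) overlapped *Il1a* (92.7 ± 31.6), and *Il1a* overlapped *Il6* (69.6 ± 8.33).

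The genes that make, sense and restrain these cytokines gave a mixed picture. Among 17 genes for processing and release of IL-1 and IL-18, 1 was higher and 4 were lower with CGRP in IAIE cells, and 3 were higher and 2 lower in CD11c cells. *Casp8*, a caspase that can cut IL-1β, rose in both, with 67.4 ± 12.9 CPM in IAIE control and 144 ± 4.63 CPM in IAIE CGRP libraries (log2 fold change 1.10 ± 0.15, edgeR adjusted p 7.19e-05), and 96.3 ± 5.40 and 197 ± 14.2 CPM in the CD11c groups (1.03 ± 0.14, edgeR adjusted p 6.38e-05). *P2rx7*, the ATP receptor upstream of the inflammasome, was lower in CD11c cells, 68.0 ± 7.48 against 273 ± 17.6 CPM in control libraries (-2.01 ± 0.14, edgeR adjusted p 2.26e-08), and 3 genes of this list were lower and 3 higher there.

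Of 12 tested receptor genes 1 rose and 1 fell with CGRP in each subset. Beside *Il15ra*, *Il6ra*, the IL-6 receptor, fell in IAIE cells from 80.6 ± 10.6 to 47.4 ± 7.74 CPM (-0.77 ± 0.16, edgeR adjusted p 0.00442), and *Il18rap*, a chain of the IL-18 receptor, fell in CD11c cells (-1.74 ± 0.38, edgeR adjusted p 0.00430). Among 3 tested decoys and binding antagonists none was called with CGRP in edgeR. *Il1r2*, the decoy receptor for IL-1, was higher in CD11c cells, where its agonist *Il1b* was higher too, at 26.6 ± 10.1 against 6.27 ± 2.37 CPM in control libraries (2.06 ± 0.36, edgeR adjusted p 0.000370). Between control subsets 3 receptor genes were higher and 1 lower in CD11c cells. *Sigirr*, another of the 3 decoys, was at 8.55 ± 1.16 CPM in CD11c control and 1.03 ± 0.624 CPM in IAIE control libraries. The filter kept *Sigirr* only through CD11c libraries, so these levels are given as a description with no test.

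Among 12 tested family cytokines none was called lower with CGRP in either subset. *Tnfsf10*, which encodes TRAIL, is left out of those called higher. Its control levels were low, and the filter kept it only through the CGRP libraries, where it is higher. It was at 0.310, 1.43 and 3.58 CPM in IAIE control and 0, 1.40 and 0.215 CPM in CD11c control libraries. With CGRP it was at 16.7 ± 5.35 and 3.91 ± 0.625 CPM, given as a description. *Osm*, oncostatin M of the IL-6 family, rose in both (0.64 ± 0.16 and 0.69 ± 0.17, edgeR adjusted p 0.0153 and 0.00847). *Lif*, of the same family, was called in CD11c cells (2.41 ± 0.64, edgeR adjusted p 0.0175). Its groups overlapped, at 1.63, 2.57 and 4.72 CPM without and 28.4, 4.70 and 16.7 CPM with CGRP. Of 10 genes of IL-10 and IL-6 feedback 2 rose and 5 fell in IAIE cells, and 1 rose and 3 fell in CD11c cells. *Socs1*, a brake on JAK signalling, rose in both (1.40 ± 0.30 and 1.16 ± 0.29, edgeR adjusted p 0.00484 and 0.0129), and *Jak1*, a kinase of the IL-10 and IL-6 receptors, fell in both (-0.70 ± 0.13 and -0.85 ± 0.13, edgeR adjusted p 0.00118 and 0.000150). Of 13 genes for shedding and mRNA decay of cytokines 1 rose and 1 fell in IAIE cells and 1 rose in CD11c cells. *Zc3h12a*, whose product Regnase-1 degrades *Il6* mRNA, was the one that fell (-0.45 ± 0.12, edgeR adjusted p 0.0230).

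Genes with the most similar profile were sought over the 12 libraries among 8464 genes averaging 5 CPM or more, by Pearson's r of log2(CPM + 1), as a description, since all genes share the libraries and their 4 groups. *Il1b* was closest to *Cd24a* (r 0.988), *Rab11fip1* (0.982) and *Rnf145* (0.975). *Tnf* was closest to *Eea1* (0.975), *Ankrd33b* (0.974) and *Atp6v1a* (0.972). *Il15* was closest to *Tent5a* (0.963), *Trim21* (0.961) and *Lgals3bp* (0.958), and *Il1rn* to *E2f5* (0.944), *Psmd8* (0.940) and *Arpc3* (0.936). *Il10* was closest to *Ubn1* (0.955), *Abcc3* (0.943) and *Per2* (0.928), and *Il6* to *Pigx* (0.985), *Plet1* (0.949) and *Rpl19-ps11* (0.925). For *Il1a* these were *Sqor* (0.915), *Upf3b* (0.909) and *Psmc6* (0.902), and for *Il12b* *Nt5c* (0.917), *Ncf1* (0.914) and *Tmsb10* (0.910).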

How the data were processed

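Bulk RNA-seq counts came from 12 libraries of macrophages sorted from synovial explants. Per the study's methods and processing notes, the authors trimmed reads with Trim Galore, aligned them to mm10 with HISAT2 and deposited raw featureCounts counts per gene symbol for 26699 genes. Versions, annotation and strand setting are not given in the sources used here, though the library kit is stranded. The combined table repeats the 12 libraries exactly, and its 6 further columns match no label and were not used.

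Genes were filtered with filterByExpr by group (minimum count 10, minimum total 15), leaving 11927, scaled by TMM and fitted over all 12 libraries with edgeR's quasi-likelihood test (edgeR 4.0.16, R 4.3.3), a mean per group and Benjamini-Hochberg adjustment over all genes. Log2 fold changes are given ± SE. The interaction is the CGRP effect in CD11c minus that in IAIE cells. Ratios added 0.5 to each side. Members, gene lists and tests were chosen with earlier results of these data known. All 10 genes are named whatever their values, and from each of the other 18 lists up to 4 called genes with the smallest adjusted p per comparison could be, of which some are given. Motifs were searched in the 250 bases before each start site. The genes most similar to *Il18* are not reported here. Gene positions are from GENCODE vM21 (GRCm38).

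Alternatives were RLE and upper-quartile scaling, 2 other filters, replicate and explant blocks, 1 surrogate variable (sva 3.50.0, which the authors also used), DESeq2 1.42.0, limma-voom (limma 3.58.1), the compared libraries alone, thinning to 2127191 counts, and leaving out each library. The edgeR step was tested on simulated data. No label states what a replicate number stands for. Deviations of same-numbered IAIE and CD11c libraries with CGRP correlated at 0.331, 0.117 and 0.191 over 5411 genes, so these may be paired. Those of CD11c control and CD11c CGRP libraries correlated at 0.199, 0.114 and -0.00734, and those of the other comparisons at -0.034 to 0.0765. The main fit used no pairing. Pairing entered only the block fits and the ratio tests that flip signs or move same-numbered libraries together. Replicates' Spearman rho was 0.834 to 0.887 across genes, with a biological coefficient of variation of 0.256.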

Additional observations from a re-analysis of the deposited data

How the results depend on the processing

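Over the 45 results of a gene in a comparison, 899 of 989 values from other fits kept direction and side of the threshold, 46 lost the call, 17 gained it and 27 changed sign, with the cause not tested. These totals include *Il12b* between subsets, which carries no test there. The 40 group levels on plain library totals moved by less than 1 SD. The number of the 9 genes called with CGRP in CD11c cells fell from 4 to 2 in limma-voom and ranged from 1 to 4 over the 12 fits that left out a library (1 without CD11c control replicate 2 or 3 or CD11c CGRP replicate 2, and 2 without CD11c CGRP replicate 1). The number ranged from 3 to 4 with CGRP in IAIE cells. Between subsets no range is given, since the counts would include *Il12b*, and lost calls stand with each gene above. The interaction gave 0 in each fit without a library, and 1 when the filter kept every gene with a count. After thinning, 4 genes stayed called with CGRP in each subset. The *Il1rn* ratio ranged from 0.73 to 0.92 and the *Il10* to *Tnf* ratio from -1.41 to -1.05 (log2) without a library.

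Signs changed in these results, none of them called. For CGRP in IAIE cells, *Il18* ran from -0.32 to 0.33 without a library and was -0.044 after thinning, and *Tnf* from -0.027 to 0.34. For CGRP in CD11c cells, *Il6* ran from -0.10 to 0.14 and was -0.0031 with upper-quartile scaling, and *Il10* from -0.47 to 0.23 and 0.092 with 1 surrogate variable. For the interaction, *Il1a* ran from -0.26 to 0.49 and was -0.021 with every gene tested, *Il6* from -0.84 to 0.037, *Il12b* from -0.61 to 2.36 and -0.60 in limma-voom, and *Il15* from -0.64 to 0.11 and 0.0036 after thinning. *Il1rn* between control subsets ran from -0.086 to 0.12 and was -0.058 with 1 surrogate variable and -0.016 after thinning.

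The replicate block changed no other call than those of *Il10* and *Il12b* between CGRP subsets, which counted 5 genes with and without it. The explant block, which can be fitted within a treatment and for the interaction only, gave 6 there, changing *Il10*, *Il12b* (adjusted p 0.0643) and *Il15*. For the ratios, a replicate block pairs control with CGRP libraries, whose deviations correlated at only -0.034 to 0.199 within a subset. The sign flips of this block gave an exact permutation p of 0.03125 for both ratios, the smallest of 64 arrangements. With same-numbered libraries of both subsets moved together, added after seeing the data, the *Il1rn* ratio (0.82) and the *Il10* to *Tnf* ratio (-1.25) had an exact permutation p of 0.1, the smallest that 20 arrangements can give. *Il12b* had too few counts for the fit of the compared libraries alone, except for CGRP in CD11c cells. *Il12b* and *Il18* had too few counts for the filter of 10 counts in every library. Depth limits *Il12b*, *Il18* and *Il23a* most, with 0 to 70 counts a library.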

Other observations

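Inducible NF-kB targets outside the cytokines and early stress genes were also listed, since both kinds of gene respond to tissue handling. Of 20 NF-kB targets 13 were higher in CD11c than in IAIE control libraries and none lower, among them *Traf1*, a signalling adaptor (log2 difference 2.14 ± 0.16, edgeR adjusted p 3.43e-08), and *Rel*, an NF-kB subunit (1.47 ± 0.14, edgeR adjusted p 4.18e-07). With CGRP 1 was higher and 7 were lower in IAIE cells, and 2 were higher and 2 lower in CD11c cells. *Ptgs2*, which encodes the inducible cyclooxygenase, rose in both (1.28 ± 0.22 and 1.05 ± 0.22, edgeR adjusted p 0.000865 and 0.00310). *Nfkb1*, which encodes the precursor p105, fell in IAIE cells (-0.96 ± 0.11, edgeR adjusted p 1.78e-05) and was the one gene of this list whose CGRP effect differed between subsets (interaction 0.88 ± 0.16, edgeR adjusted p 0.0180).

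Of 17 early stress genes 8 were lower and 1 higher with CGRP in IAIE cells, and 6 were lower and 1 higher in CD11c cells. *Fosb*, an AP-1 subunit, fell in both (-1.11 ± 0.12 and -1.06 ± 0.12, edgeR adjusted p 1.20e-05 and 1.16e-05), and so did *Klf2*, a transcription factor (-0.83 ± 0.13 and -1.29 ± 0.13, edgeR adjusted p 0.000413 and 4.30e-06). Between control subsets 7 were lower in CD11c cells. How these genes bear on the cytokines was not tested.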
